A study of Mus musculus with 9 samples.

Results

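Genes of the mitotic spindle, the kinetochore and their regulators were followed in whole mouse liver deficient in O-GlcNAc transferase (OGT). This enzyme attaches N-acetylglucosamine to nuclear and cytoplasmic proteins. The list held 60 named genes, all of which are among the 24421 gene symbols with read counts. The libraries came from liver RNA of C57BL/6J mice aged 5 weeks that had gone without food for 6 h, with 5 control littermates (WT) and 4 mice in which OGT was deleted (OGT-deficient). Both sexes entered the study, and the fast and the strain were common to both groups. The sources used here do not give the promoter or recombinase behind the deletion, the sex and litter of each mouse, or the sequencing batch. Each library was taken as 1 mouse, since the design gives as many mice as there are libraries.

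Mitosis divides duplicated chromosomes between 2 daughter cells. Kinetochores, protein assemblies built on centromeric chromatin, attach the chromosomes to spindle microtubules, and the spindle checkpoint holds back the anaphase-promoting complex until all are attached. That complex then has securin and cyclin B destroyed, separase opens the cohesin rings, and motor and midzone proteins complete cytokinesis. Most genes of this apparatus are transcribed late in the cell cycle under the MuvB complex with MYBL2 or FOXM1, and are repressed in resting cells by the DREAM complex, which reads promoter elements called cell cycle genes homology regions and is often accompanied by the CCAAT-binding factor NF-Y. Hepatocytes of the adult liver rarely divide, and around weaning many mouse hepatocytes pass through mitosis without completing cytokinesis and become polyploid.

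Counts assigned to genes ran from 32337861 to 54130901 per library, and CPM below is the usual depth-scaled count, on library sizes adjusted by trimmed mean of M-values (TMM). A count of 3 was worth 0.0572 to 0.104 CPM. Ogt stood at 51.1 to 73.1 CPM in WT and 14.3 to 20.6 CPM in OGT-deficient libraries, so each library carried the change its label names. Alignments to more than a single place, which entered no gene count, came to 0.314 to 1.02 per counted read in WT and 0.205 to 0.224 in OGT-deficient libraries. The part of this difference in the contrast between the groups was not tested. Albumin (Alb) measured 65576 to 84632 CPM in WT and 29078 to 36757 CPM in OGT-deficient libraries, so this defining hepatocyte transcript was abundant in both groups.

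The promoters of the list come first, because they carry a feature the list was not chosen by. RefSeq windows (GRCm38.p6) of 300 bases, from 250 before to 50 after the annotated transcription start, were matched for 52 of the 60 genes, with the first window used where a gene has several. The letters TTTGAA, the common form of the cell cycle genes homology region, were searched on both strands (TTCAAA on the other) and occurred in 35 of 52 windows (67.3%), against 4893 of 27025 windows of all genes (18.1%). Within 50 bases of the start they occurred in 31 of 52 (59.6%), against 1330 of 27025 (4.92%). The NF-Y motif CCAAT, which reads ATTGG on the other strand, occurred in 36 of 52 windows (69.2%) against 37.9% of all, and both motifs in 29 of 52 (55.8%) against 7.12%. TTTAAA, which reads the same on both strands, occurred in 17.3% against 13.2%, and TATAAA, searched for comparison, in 3.85% against 14.2%. None of the motifs contains another, and a match is a match of letters only.

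The upstream stretches of 6 genes are shown to let the motifs be read in place. They are not typical in position, and matches after the start are not shown. Of the 35 genes with TTTGAA, 31 hold a match within 50 bases of the start. Over these 35 genes the median nearest position was 3, counting the first transcribed base as 1. In Mki67, Kif2c and Ckap2 the nearest match lies further upstream. TTTGAA lies in the last 150 bases before the start in 17 of the genes, and in these 6 no annotated exon covers any of that stretch. The stretch of Kif2c lies before its RefSeq start but inside the gene as annotated in GENCODE M21 (chromosome 4, 117159639 to 117182639, minus strand). Capitals mark TTTGAA or TTCAAA and CCAAT or ATTGG. Each runs 5′ to 3′ on the strand of its gene and ends at the base before the start.
Kif11 (chr19:37376232-37376381, plus strand): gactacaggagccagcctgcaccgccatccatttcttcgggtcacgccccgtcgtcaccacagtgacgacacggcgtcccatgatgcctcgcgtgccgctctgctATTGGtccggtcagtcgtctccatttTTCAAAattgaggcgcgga
Smc2 (chr4:52439071-52439220, plus strand): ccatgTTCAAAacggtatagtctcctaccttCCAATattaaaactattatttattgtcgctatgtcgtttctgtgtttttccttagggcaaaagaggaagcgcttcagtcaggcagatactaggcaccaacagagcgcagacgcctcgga
Ckap2 (chr8:22185820-22185969, minus strand): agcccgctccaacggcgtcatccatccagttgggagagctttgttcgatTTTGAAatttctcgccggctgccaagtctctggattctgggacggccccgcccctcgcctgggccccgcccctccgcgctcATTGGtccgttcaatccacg
Top2a (chr11:99024190-99024339, minus strand): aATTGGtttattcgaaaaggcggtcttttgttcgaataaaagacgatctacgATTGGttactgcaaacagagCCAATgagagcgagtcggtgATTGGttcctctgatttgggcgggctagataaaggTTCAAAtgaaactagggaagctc
Mki67 (chr7:135716380-135716529, minus strand): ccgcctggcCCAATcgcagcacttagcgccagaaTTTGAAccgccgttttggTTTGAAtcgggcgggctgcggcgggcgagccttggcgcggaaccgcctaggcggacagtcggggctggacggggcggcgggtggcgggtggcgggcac
Kif2c (chr4:117178773-117178922, minus strand): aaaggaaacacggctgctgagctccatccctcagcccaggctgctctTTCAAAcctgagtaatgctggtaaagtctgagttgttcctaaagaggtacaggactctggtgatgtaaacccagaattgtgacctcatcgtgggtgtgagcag
With the last base before the start as position -1, the inverted TTTGAA begins at -19 in Kif11 and at -23 in Top2a, each with an inverted CCAAT further upstream, and Top2a holds CCAAT or its inverse at 4 places in the stretch. Mki67 carries TTTGAA at 2 places, -116 and -98. The match within the stretch begins at -145 in Smc2, -103 in Kif2c and -101 in Ckap2, and the stretch of Kif2c holds no CCAAT. Smc2 holds another match nearer the start, at position 27, outside the stretch shown.

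Transcripts of the mitotic apparatus were more abundant in OGT-deficient liver. Of the 60 genes, all of which passed the filter on low counts, 54 rose and 2 fell at an adjusted p under 0.05 in edgeR's quasi-likelihood test, and 4 were not called. Among all 14104 tested genes 31.6% rose and 29.4% fell, 61.1% in either direction. The counts by role below are read against these shares. The median log2 fold change was 1.84 for the 60 genes and 0.02 for all tested genes. At least 2-fold rises numbered 51 (14.8% of all tested genes) and at least 4-fold rises 23 (6.12% of all). In 53 of the 60 genes all 4 OGT-deficient values exceeded all 5 WT values (26.2% of all tested genes), in 2 they were all below (25.0% of all), and in 5 the groups overlapped. Values per library are listed in the order WT 1 to 5 and OGT-deficient 1 to 4. In bulk tissue, more dividing cells and more of these transcripts per cell cannot be told apart.

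**Figure D1:**
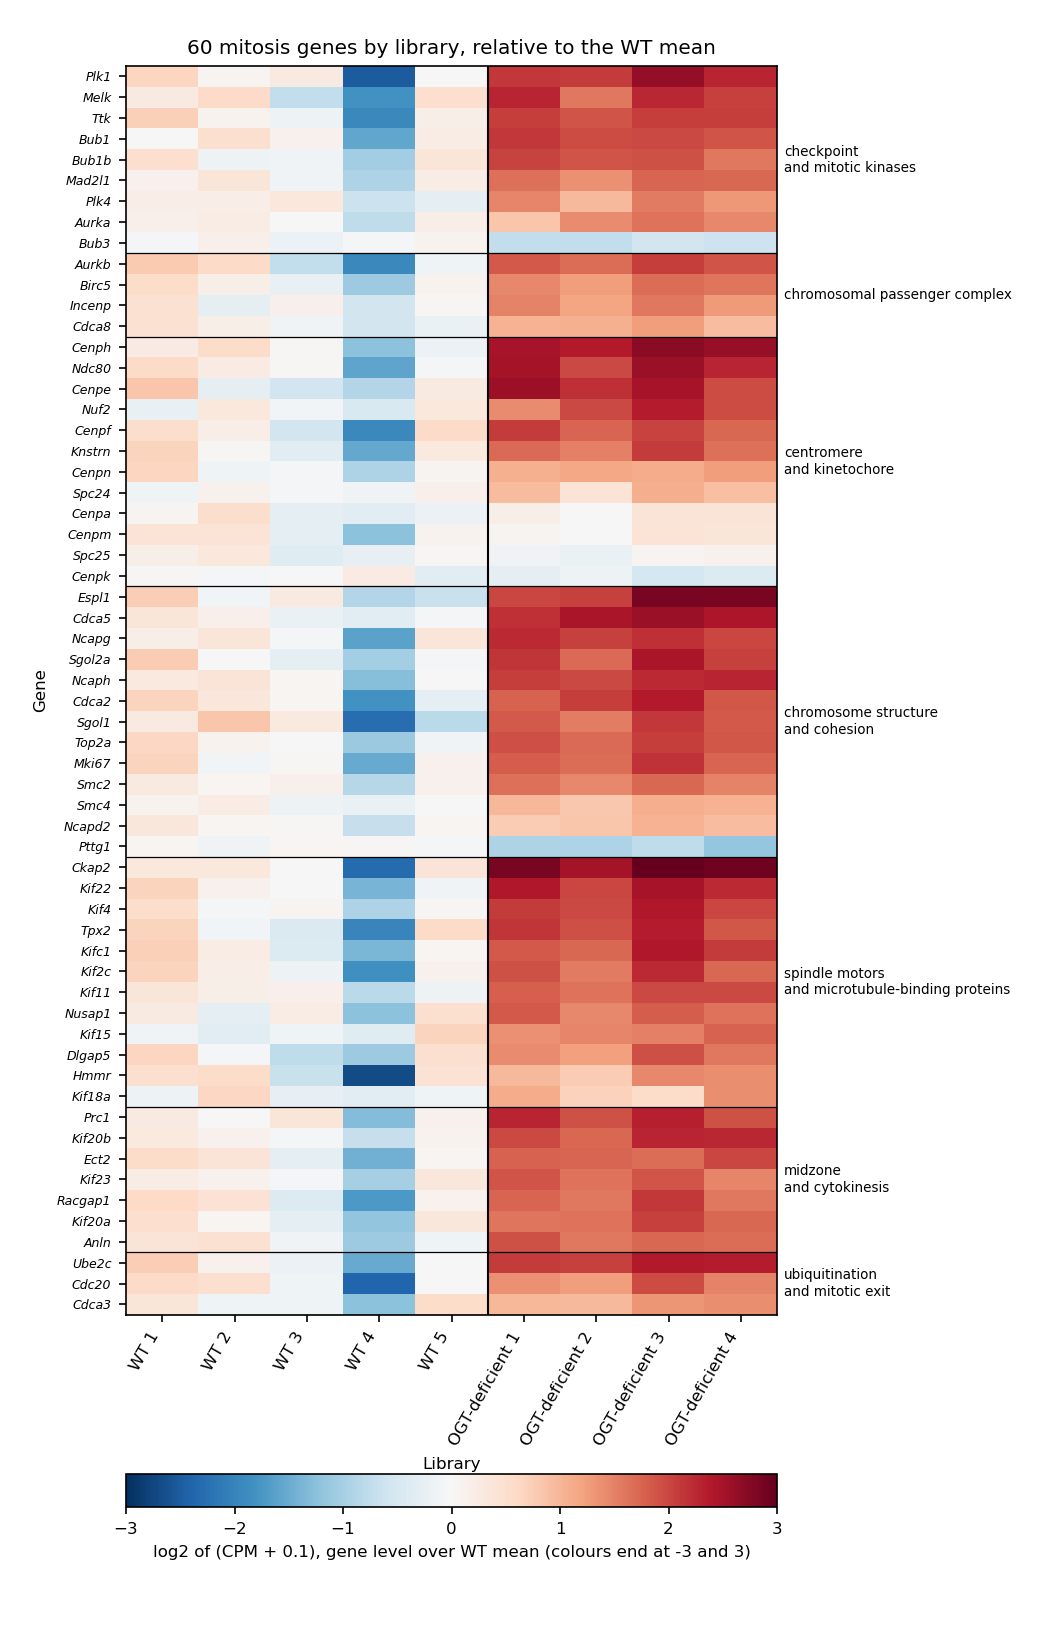
Each row is a gene, each column a library, and the colour gives log2 of (CPM + 0.1) relative to the mean of the 5 WT libraries. The 4 OGT-deficient columns are red in most rows, Bub3 and Pttg1 are blue there, and WT 4 is the palest or bluest WT column, lowest of the WT libraries in 55 of 60 genes.

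Summed over the 60 genes, the WT libraries held 265.7, 246.0, 204.7, 149.2 and 232.9 CPM, and the OGT-deficient libraries 483.4, 432.0, 564.2 and 490.8 CPM. The group means were 219.7 ± 45.2 (SD, n = 5) and 492.6 ± 54.4 CPM (SD, n = 4), and the groups did not overlap. Mouse WT 4 stood apart among the controls: it had the lowest value for 55 of 60 genes, and 15 genes had under 10 counts there. It was also the shallowest library and the one with the most non-unique alignments per counted read, whose part in its low values was not tested. WT 5 had nearly as many of these (0.955 per counted read, against 1.02 in WT 4), with a sum of 232.9 CPM. Without WT 4 the counts of 54 higher and 2 lower were the same, and the median log2 fold change of the list was 1.64. In the OGT-deficient group, library 3 was highest for 41 genes and library 2 lowest for 39. The median coefficient of variation of the 54 genes that rose was 42.8% in WT (24.2% without WT 4) and 14.7% in OGT-deficient libraries. These genes were picked by their rise, so their WT counts are lower, as for Ttk (2 to 45 in WT, 90 to 138 in OGT-deficient libraries). Counting noise takes a larger part of the spread at low counts, and its share in this difference was not tested.

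**Figure D2:**
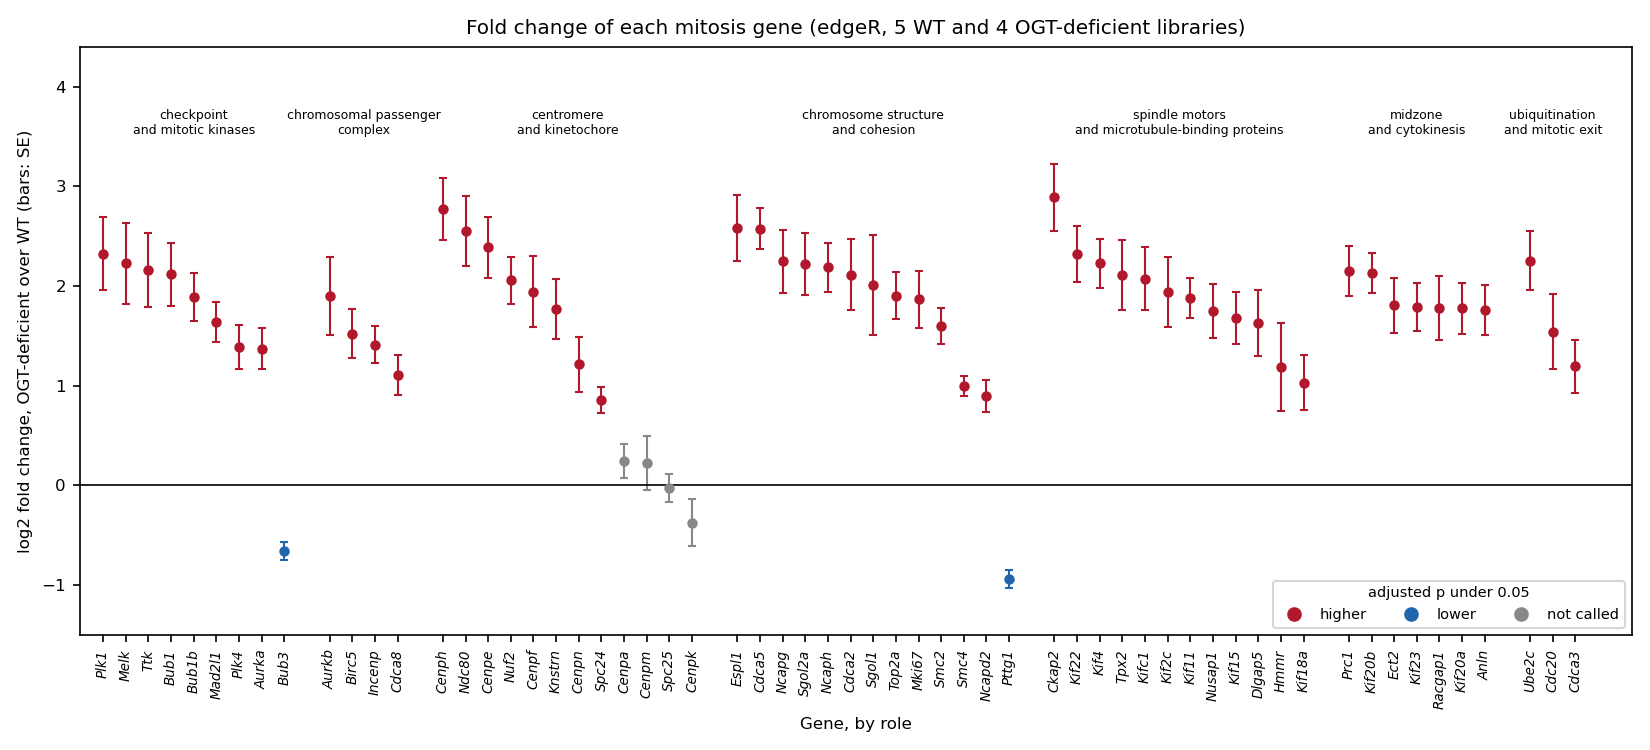
Each point is the log2 fold change of a gene, OGT-deficient over WT, with its standard error, grouped by role and coloured by the call. Bub3 and Pttg1 lie below 0, 4 centromere and kinetochore genes lie near 0, and the 54 others are above it, from 0.86 (Spc24) to 2.89 (Ckap2).

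Of 9 genes for checkpoint proteins and mitotic kinases, 8 rose and Bub3 fell. Mad2l1, which encodes the checkpoint protein MAD2 that binds the activator of the anaphase-promoting complex, measured 4.57, 5.44, 3.90, 2.15 and 4.86 CPM in WT and 13.3, 11, 14.2 and 14.1 CPM in OGT-deficient libraries. Bub1b, encoding the checkpoint protein BUBR1, measured 3.35, 2.08, 2.16, 1.08 and 3.01 CPM in WT and 9.78, 8.92, 9.03 and 7.17 CPM in OGT-deficient libraries. Neither gene's groups overlapped, and the log2 fold changes were 1.64 (SE 0.20, adjusted p = 1.95e-05) and 1.89 (SE 0.24, adjusted p = 2.67e-05). The kinase genes Plk1 (log2 fold change 2.33), Melk (2.23), Ttk (2.16), Bub1 (2.12), Plk4 (1.39) and Aurka (1.37) rose as well. PLK1 and AURKA drive centrosome maturation and spindle assembly, PLK4 duplicates the centriole, and TTK and BUB1 are checkpoint kinases at the kinetochore.

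Bub3 (chromosome 7, 131560222 to 131571895, plus strand, GRCm38) went the other way. Its protein carries BUB1 and BUBR1 to the kinetochore. It measured 30.9, 35.7, 28.5, 31.2 and 34.6 CPM in WT and 19.2, 19.1, 22.0 and 21.1 CPM in OGT-deficient libraries, all below the lowest WT value. The fall was 1.58-fold (log2 fold change -0.66, SE 0.09, adjusted p = 3.85e-05). Per kilobase of exon, Bub3 stood at 4.59 ± 0.418 CPM and its partner Bub1 at 0.138 ± 0.0640 CPM in WT (SD, n = 5), against 2.91 ± 0.205 and 0.616 ± 0.0418 CPM in OGT-deficient liver (SD, n = 4).

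The 4 genes of the chromosomal passenger complex, which corrects faulty attachments and later acts at the midzone, all rose. Incenp, the scaffold, measured 4.91, 2.86, 3.96, 2.39 and 3.61 CPM in WT and 10.2, 8.19, 10.9 and 8.69 CPM in OGT-deficient libraries. Birc5, encoding survivin, measured 3.59, 2.75, 2.05, 1.08 and 2.62 CPM in WT and 6.70, 5.92, 8.0 and 7.54 CPM in OGT-deficient libraries. Both were higher in every OGT-deficient library, with log2 fold changes of 1.41 (SE 0.19) and 1.52 (SE 0.25). Aurkb, the kinase of the complex, rose by 1.90 (SE 0.39, adjusted p = 0.00098) and Cdca8, encoding borealin, by 1.11 on the log2 scale.

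Centromere and kinetochore genes split. Of 12, 8 rose (66.7%, against 31.6% of all tested genes), 0 fell and 4 were not called. Cenph (chromosome 13, 100759674 to 100775899, minus strand), a subunit of the inner kinetochore, measured 0.470, 0.609, 0.393, 0.104 and 0.328 CPM in WT and 2.57, 2.42, 3.05 and 2.84 CPM in OGT-deficient libraries. That is a 6.83-fold rise (log2 fold change 2.77, SE 0.31, adjusted p = 8.46e-06) and the second largest of the list, without overlap. Nuf2, a subunit of the NDC80 complex that grips the microtubule, measured 0.833, 1.26, 0.926, 0.694 and 1.25 CPM in WT and 2.80, 4.18, 5.53 and 4.14 CPM in OGT-deficient libraries (log2 fold change 2.06, SE 0.24). Further rises were those of Ndc80 (2.56), the kinetochore motor gene Cenpe (2.39), Cenpf (1.94), Knstrn (1.77), Cenpn (1.22) and Spc24 (0.86).

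The 4 genes without a call all belong to this role. Cenpa, the histone H3 variant that marks the centromere, measured 9.29, 12.7, 7.18, 6.97 and 7.75 CPM in WT and 9.95, 8.90, 11.4 and 11.6 CPM in OGT-deficient libraries (log2 fold change 0.25, SE 0.17, adjusted p = 0.227). It is called without WT 2, its highest control (log2 fold change 0.42, adjusted p = 0.0177). Cenpm, an inner kinetochore subunit, measured 4.83, 4.87, 3.0, 1.49 and 3.90 CPM in WT and 3.84, 3.65, 4.84 and 4.70 CPM in OGT-deficient libraries (log2 fold change 0.22, SE 0.27, adjusted p = 0.496). Cenpk, whose protein sits beside that of Cenph in the inner kinetochore, measured 1.0, 0.945, 0.982, 1.18 and 0.745 CPM in WT and 0.780, 0.857, 0.648 and 0.710 CPM in OGT-deficient libraries (log2 fold change -0.37, SE 0.23, adjusted p = 0.183). The groups of each overlapped.

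Within the NDC80 complex, which contains a copy of each of 4 proteins, the transcripts changed unequally. Spc25 measured 11.3, 12.4, 7.71, 8.46 and 10.2 CPM in WT and 9.23, 8.72, 10.6 and 11 CPM in OGT-deficient libraries (log2 fold change -0.03, SE 0.14, adjusted p = 0.891). Its sign was positive without WT 2, its highest control (0.065). Spc24 measured 12.2, 14.6, 12.8, 12.3 and 14.8 CPM in WT and 25.7, 17.6, 28.6 and 24.9 CPM in OGT-deficient libraries, above WT throughout (SE 0.13, adjusted p = 9.34e-05). Per kilobase of exon the WT means were 5.19 CPM for Spc24, 3.14 for Spc25, 0.157 for Nuf2 and 0.0630 for Ndc80. In OGT-deficient liver the corresponding means were 9.40, 3.10, 0.656 and 0.387 CPM, so the order was kept while Ndc80 and Nuf2 came closer to the other subunits. Ndc80, chosen here after its values were seen, rested on 2 counts in WT 4.

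**Figure D3:**
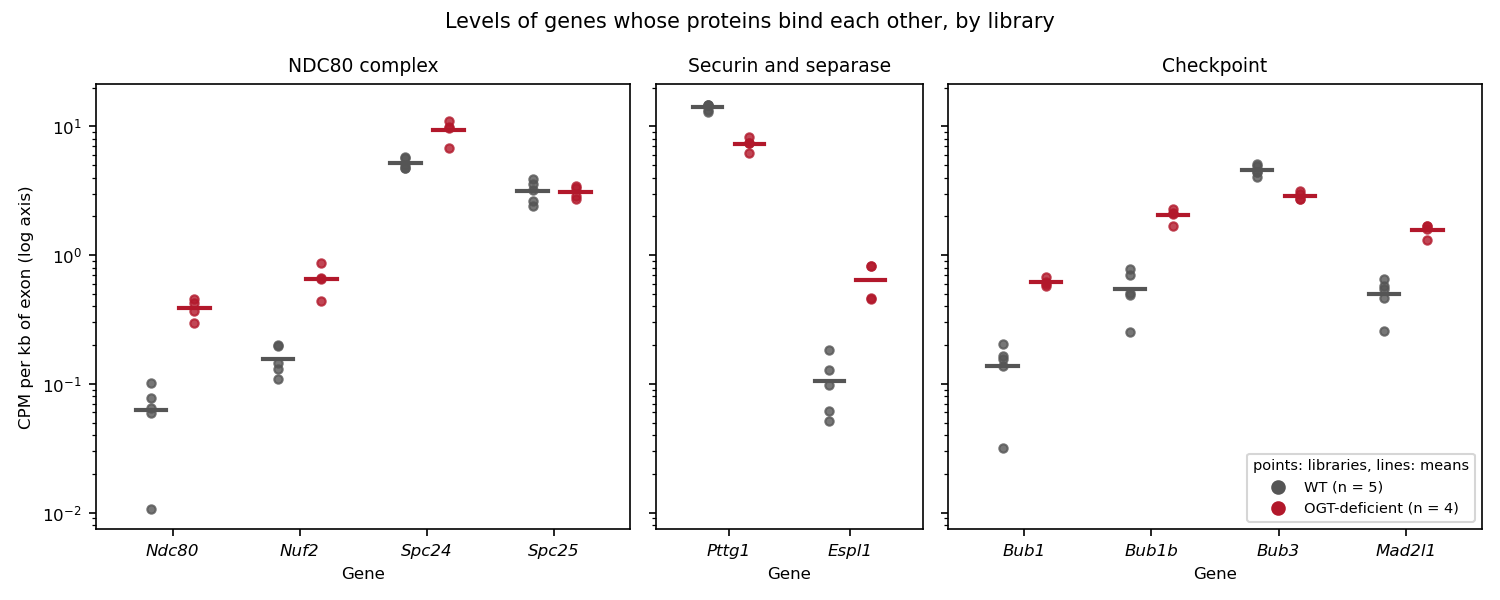
Each point is a library and each line a group mean, in CPM per kb of exon on a log axis, for genes of the NDC80 complex, for securin (Pttg1) and separase (Espl1), and for 4 checkpoint genes. Ndc80, Nuf2, Espl1, Bub1, Bub1b and Mad2l1 are higher in OGT-deficient libraries, Spc25 overlaps, and Pttg1 and Bub3 are lower.

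Genes of chromosome structure and cohesion numbered 13, of which 12 rose and Pttg1 fell. Cdca5 (chromosome 19, 6084983 to 6091777, plus strand) encodes sororin, which keeps sister chromatids joined, and had the smallest p of the list. It measured 0.790, 0.672, 0.505, 0.451 and 0.566 CPM in WT and 3.08, 3.70, 4.10 and 3.65 CPM in OGT-deficient libraries, a 5.97-fold rise (log2 fold change 2.58, SE 0.21, adjusted p = 5.7e-07). Pttg1 (chromosome 11, 43420250 to 43426251, minus strand) encodes securin, the inhibitor and chaperone of separase. It measured 29.5, 26.0, 29.3, 29.1 and 27.0 CPM in WT and 14.8, 14.8, 16.6 and 12.5 CPM in OGT-deficient libraries, a 1.92-fold fall without overlap (log2 fold change -0.94, SE 0.09, adjusted p = 2.85e-06). Separase itself, Espl1, measured 1.60, 0.861, 1.12, 0.451 and 0.537 CPM in WT and 3.98, 4.08, 7.18 and 7.25 CPM in OGT-deficient libraries, a 5.99-fold rise (log2 fold change 2.58, SE 0.33, adjusted p = 2.6e-05). The transcripts of this protein pair thus moved in opposite directions: per kilobase of exon, securin exceeded separase by 80.5 to 282.3 times in WT and by 7.57 to 16.3 times in OGT-deficient libraries. The highest of these ratios was that of WT 4, where Espl1 rested on 13 counts.

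Condensin I, the ring that compacts mitotic chromosomes, is represented by all 5 of its subunits. Ncapg rose by 2.25, Ncaph by 2.19, Smc2 by 1.60, Smc4 by 1.0 and Ncapd2 by 0.89 on the log2 scale. Per kilobase of exon, Smc4 and Ncapd2 had the highest WT levels of the 5, at 3.0 ± 0.371 and 1.32 ± 0.317 CPM, and Ncapg the lowest, at 0.0894 ± 0.0411 CPM (SD, n = 5). Sgol2a (2.22) and Sgol1 (2.01), which encode the shugoshins that shield centromeric cohesin, rose as well. Sgol1 had no count in WT 4, where 3 counts would be 0.104 CPM, and its log2 fold change was 2.65 in limma voom. The phosphatase-recruiting gene Cdca2 (2.12), the decatenating topoisomerase gene Top2a (1.90) and the proliferation marker Mki67 (1.87) complete the group. Another gene, Kctd18, covers 35.0% of the exonic bases of Sgol2a, and Lcorl covers 13.4% of those of Ncapg. Whether the authors' counting used the strand is unstated, so these and later values of overlapping genes are uncertain.

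All 12 genes of spindle motors and microtubule-binding proteins rose. Ckap2 (chromosome 8, 22168160 to 22185819, minus strand), encoding a protein that stabilises spindle microtubules, had the largest change of the 60 genes. It measured 1.79, 1.81, 1.43, 0.208 and 1.91 CPM in WT and 10.9, 8.52, 12.6 and 11.4 CPM in OGT-deficient libraries, a 7.42-fold rise (log2 fold change 2.89, SE 0.34, adjusted p = 1.23e-05). Kif11, the motor that pushes spindle poles apart, measured 3.14, 2.77, 2.72, 1.35 and 2.18 CPM in WT and 8.66, 7.71, 9.95 and 9.89 CPM in OGT-deficient libraries (log2 fold change 1.88, SE 0.20). Kif4, a chromosome-bound motor, measured 1.30, 0.840, 0.926, 0.416 and 0.894 CPM in WT and 4.11, 3.76, 5.03 and 3.84 CPM in OGT-deficient libraries (log2 fold change 2.23, SE 0.25). None of these 3 genes had overlapping groups, and WT 4 was the lowest library for each.

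The other members of the group ranged from 1.03 to 2.33 on the log2 scale. The chromokinesin gene Kif22 rose by 2.33, Tpx2, the activator of AURKA, by 2.11, the microtubule depolymerase gene Kif2c by 1.94 and Nusap1 by 1.75. Kif15 rose by 1.68 and Dlgap5 by 1.63. Kif18a, a motor that dampens chromosome movements, had the smallest rise (1.03, SE 0.28, adjusted p = 0.00617), and its groups overlapped through WT 2. Hmmr rose by 1.19 (SE 0.44, adjusted p = 0.0316). It lost its call in DESeq2 (adjusted p = 0.0846) and without WT 3 (0.0683), OGT-deficient 3 (0.0802) or OGT-deficient 4 (0.0731). The rise of Kifc1 (2.08) is uncertain, because 47.6% of the 50-base stretches of its longest transcript also occur in other genes, among them Kifc5b.

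The 7 genes of the spindle midzone and of cytokinesis all rose, within a narrow range of 1.76 to 2.15 on the log2 scale. Prc1, which bundles the antiparallel microtubules of the midzone, measured 2.86, 2.37, 3.06, 0.902 and 2.59 CPM in WT and 11.9, 9.07, 12.3 and 9.13 CPM in OGT-deficient libraries. Kif20b, a midzone motor gene, measured 1.97, 1.74, 1.54, 0.936 and 1.70 CPM in WT and 6.47, 5.47, 8.10 and 7.96 CPM in OGT-deficient libraries. Every OGT-deficient library exceeded every WT library for both, with rises of 4.45-fold (adjusted p = 1.16e-05) and 4.39-fold (adjusted p = 2.11e-06). The centralspindlin genes Kif23 (1.79) and Racgap1 (1.78), the RHOA activator gene Ect2 (1.81), Kif20a (1.78) and the contractile ring gene Anln (1.76) changed by similar amounts. Cdc23 covers 29.3% of the exonic bases of Kif20a, Rccd1 covers 11.1% of those of Prc1, and in the group of motors Pdzd11 covers 15.1% of those of Kif4.

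Among the 3 genes of ubiquitination and mitotic exit, all rose. Ube2c, the ubiquitin-conjugating enzyme of the anaphase-promoting complex, measured 3.01, 1.95, 1.57, 0.555 and 1.79 CPM in WT and 7.97, 7.61, 9.64 and 9.47 CPM in OGT-deficient libraries (log2 fold change 2.26, SE 0.30). Cdca3, which is involved in entry into mitosis, measured 4.36, 3.07, 3.09, 1.39 and 4.95 CPM in WT and 6.81, 6.68, 8.54 and 9.03 CPM in OGT-deficient libraries (log2 fold change 1.20, SE 0.26). Groups were separate for both, by a wider margin for Ube2c. Cdc20, the activator through which the checkpoint acts, rose by 1.54 (SE 0.37, adjusted p = 0.00319). The gene Tnnc2 covers 22.8% of the exonic bases of Ube2c, and 11.4% of the 50-base stretches of Cdc20 occur elsewhere.

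Of the 6 genes that did not rise, 5 were among the 10 with the highest level per length in control liver. Per kilobase of exon, Pttg1 (14.1 ± 0.790 CPM, SD, n = 5), Spc24 (5.19 ± 0.491) and Bub3 (4.59 ± 0.418) were the highest of the 60 genes in WT, followed by Spc25 (3.14 ± 0.610), Smc4 (3.0 ± 0.371) and Cdc20 (2.73 ± 1.44). The neighbours Spc24 and Bub3, and Spc25, Smc4 and Cdc20, do not differ beyond their spread. Of the 10 highest genes 5 rose, 2 fell and 3 were not called, and of the other 50 genes 49 rose and Cenpk was not called. Among all tested genes 31.6% rose and 29.4% fell, so the 2 falls among 10 genes are not above the share of all. In OGT-deficient liver the order was led by Spc24 (9.40 ± 1.81 CPM per kb, SD, n = 4), Cdc20 (8.08 ± 1.84) and Pttg1 (7.35 ± 0.826); these neighbours do not differ beyond their spread either. Across the 60 genes, Spearman's rho between the WT level per kilobase and the log2 fold change was -0.53. This is a description across genes, and both quantities use the same WT values.

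**Figure D4:**
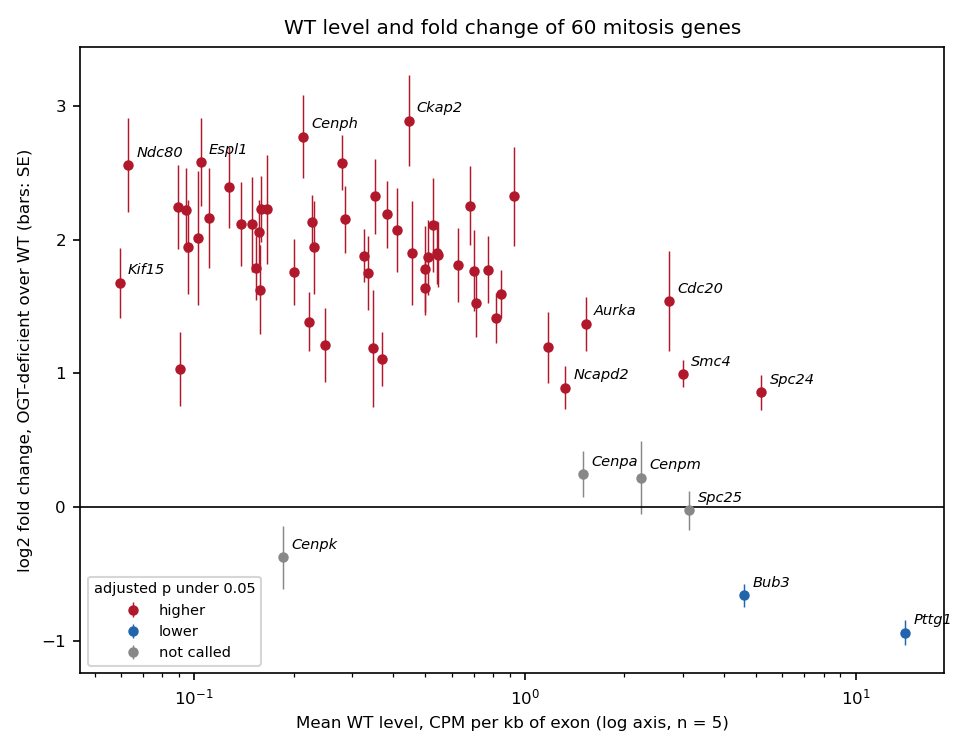
Each point is a gene, placed by its mean WT level in CPM per kb of exon (log axis) and by its log2 fold change with the standard error. Pttg1 and Bub3 lie at the lower right, Cenpk is the gene at a low level that was not called, and the largest rises are found among genes below 1 CPM per kb.

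Most genes rose with or without the TTTGAA letters: 32 of 35 genes that hold them in the window (median 1.88 on the log2 scale) and 14 of 17 that do not (median 1.77). Of all tested genes 31.6% rose and 29.4% fell, with a median of 0.02. Bub3, Cenpa and Spc25 hold the letters although they did not rise, beginning at positions -43, 17 and 25 (the first transcribed base is position 1), and Pttg1, Cenpk and Cenpm do not hold them.

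Other parts of the mitotic machinery were read from 8 further lists, tested in the same fit. Among all tested genes 31.6% rose and 29.4% fell. The cyclin and CDK1 switch, which triggers mitotic entry, had 10 of 14 genes higher (71.4%) and 1 lower. Pkmyt1, an inhibitory kinase of CDK1, rose by 2.51 on the log2 scale, from 1.65 ± 0.273 to 9.50 ± 2.0 CPM (mean ± SD, n = 5 WT and n = 4 OGT-deficient, as in the values that follow), and Arpp19, which with Ensa restrains the phosphatase opposing CDK1, from 69.0 ± 4.75 to 152.1 ± 22.5 CPM (1.14). Cdk1 rose by 1.55 and Ensa fell by 0.24, a call lost with upper-quartile factors and with the replicate block. Of 29 other centromere and kinetochore genes tested, 21 rose (72.4%) and 5 fell. Apitd1, listed under its older symbol and encoding the centromere protein CENP-S, rose from 0.231 ± 0.138 to 4.30 ± 0.324 CPM (log2 fold change 4.12), and Ska3, of the complex that tracks microtubule ends, by 2.78. Zwint, encoding a kinetochore protein that binds the checkpoint's RZZ complex, fell from 56.8 ± 2.19 to 26.7 ± 1.47 CPM (log2 fold change -1.09, adjusted p = 1.2e-07), and Mis12 fell by 0.73.

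Among 29 other spindle and centrosome genes 19 rose (65.5%, against 31.6% of all tested genes) and 4 fell (29.4% of all). Haus8, a subunit of the augmin complex that branches spindle microtubules, rose from 3.79 ± 0.415 to 35.2 ± 11.4 CPM (log2 fold change 3.21), Spag5 by 1.82 and Cdk5rap2 by 1.61, while Cep152 fell by 0.41 and Pcnt by 0.26 on the log2 scale. With upper-quartile factors none of the 4 falls was called. Condensin II's own subunits gave 2 rises of 3 genes: Ncapg2 rose by 1.67 and Ncaph2 by 0.23, a call lost in 7 of 16 alternatives, and Ncapd3 stood at -0.02 (adjusted p = 0.891). Of 20 cytokinesis and abscission genes outside the 60, 10 rose (50%, against 31.6% of all tested genes) and 3 fell. The kinase gene Rock2 rose by 1.13 and the RHOA activator gene Arhgef2 by 1.08, and the abscission ATPase gene Vps4a (-0.52) and the motor gene Kif13a (-0.53) fell.

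Counts in 3 further lists are read against all tested genes, of which 31.6% rose and 29.4% fell. For the anaphase-promoting complex, 7 of 17 rose (41.2%, near that share) and 2 fell (median 0.23 on the log2 scale). Anapc7 rose by 0.41, and the subunit genes Anapc11 (-0.72) and Cdc23 (-0.47) fell. Cohesin had 3 rises (25.0%, also near it) and 2 falls among 12 genes, with a median change of 0.08. Esco2, the acetyltransferase that closes cohesin in S phase, rose by 1.76, while the cohesin release gene Wapal (-0.48) and Stag2 (-0.52) fell. Of the 23 transcriptional regulators, 3 rose and 11 fell: Foxm1 went from 1.26 ± 0.505 to 5.71 ± 1.47 CPM (log2 fold change 2.15), the pocket protein gene Rbl1 rose by 1.69, and Tfdp2, a partner of E2F factors, fell by 1.06. Upper-quartile scaling gave 6 higher and 7 lower for these regulators, and 6 higher for cohesin. Mybl2, chosen after its values were seen, was not called (0.672 ± 0.157 and 0.854 ± 0.238 CPM, adjusted p = 0.314). Its level is uncertain, because 23.8% of the 50-base stretches of its longest transcript also occur in other genes.

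**Figure D5:**
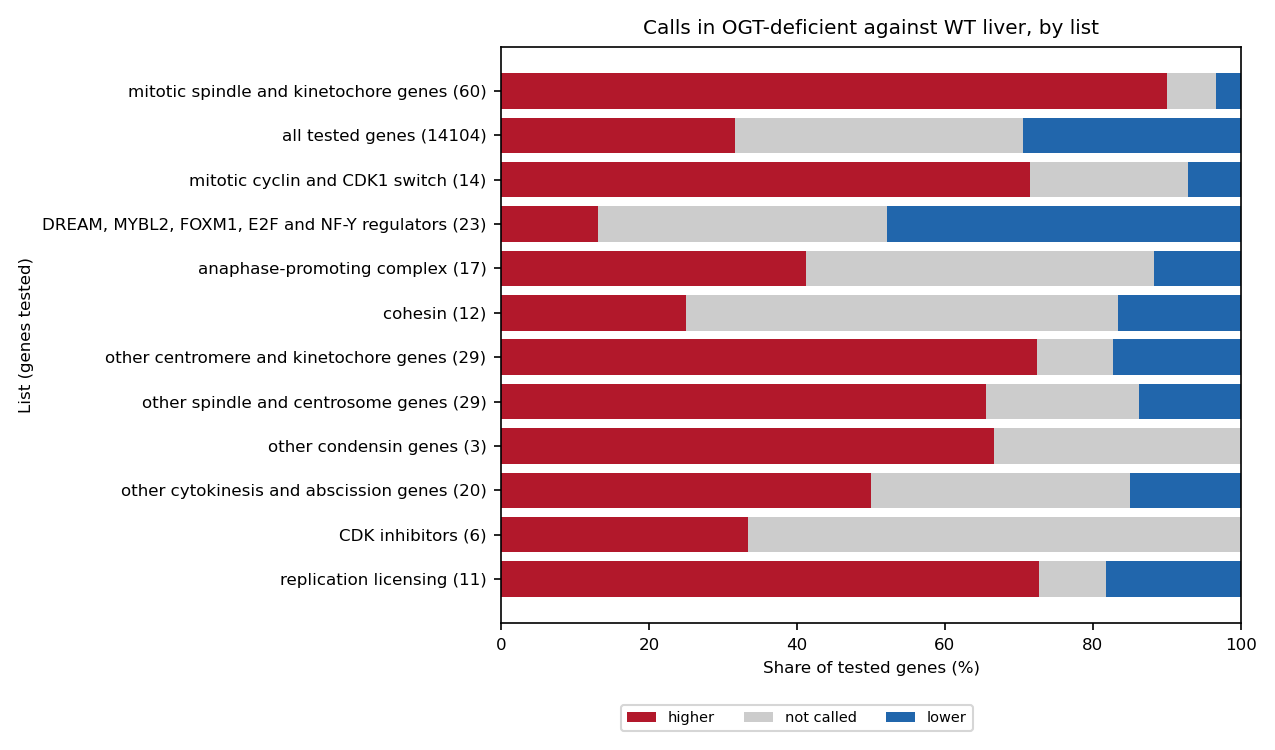
Bars give the share of tested genes that were higher, not called or lower in OGT-deficient liver, for the 60 genes, all 14104 tested genes and the other lists, with the number tested in parentheses. The 60 genes have the largest red share (54 of 60), and the transcriptional regulators are the only list shown in which falls (11) outnumber rises (3).

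Markers of some other cell types differed between the groups in the same libraries, where 31.6% of all tested genes rose and 29.4% fell. Of 9 tested bile duct markers 8 rose and 1 fell, with 10 summing to 49.5 to 79.6 CPM in WT and 159.1 to 272.7 CPM in OGT-deficient libraries. Of 10 stellate cell and fibroblast markers 9 rose and 0 fell (sums of 177.8 to 410.3 and 885.6 to 1259 CPM), and of 9 recruited macrophage markers 7 rose and 0 fell (106.6 to 140.0 and 286.0 to 381.5 CPM). The bile duct and macrophage lists are not separate, since both hold Spp1, whose mean was 34.5 ± 9.85 (SD, n = 5) and 157.0 ± 32.8 CPM (SD, n = 4) in the 2 groups. Without Spp1, 7 of 8 bile duct markers rose (25.2 to 30.4 and 46.5 to 102.3 CPM) and 6 of 8 macrophage markers (79.0 to 103.8 and 134.6 to 199.1 CPM). Of 10 hepatocyte markers 8 fell and 0 rose, with sums of 99474 to 117290 and 47251 to 60689 CPM. Kupffer cell markers gave 3 rises and 0 falls of 8 (37.5% higher, near the share of all tested genes; 485.1 to 702.8 and 484.1 to 827.2 CPM) and endothelial markers 1 rise and 4 falls of 9 (389.1 to 534.1 and 245.9 to 456.5 CPM). No marker in these 6 lists was at 0 in every library. The part of a changed cell mixture in the mitotic transcripts was not tested.

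Summed markers of blood cells overlapped between the groups. Their calls are read against all tested genes, of which 31.6% rose and 29.4% fell. The 8 T and NK cell markers summed to 5.53 to 6.78 CPM in WT and 5.75 to 7.28 CPM in OGT-deficient libraries, and none was called. The 6 B and plasma cell markers, of which 1 rose and 1 fell, summed to 5.06 to 7.82 and 4.03 to 8.06 CPM, and the 7 neutrophil markers, of which 2 of 4 tested rose, to 3.61 to 8.05 and 3.62 to 12.3 CPM. Erythroid markers, which would mark dividing precursors of red cells, summed to 122.5 to 195.2 and 109.1 to 206.6 CPM. Of 4 tested erythroid markers Tfrc rose and Klf1 fell (log2 fold change -2.50), and 5 of the 10 listed were under 3 counts in every library. Among these are the 4 globin genes, listed at 0 throughout. They share 58.3% to 86.9% of their 50-base stretches with each other. The reason for the zeros was not tested, and they are not read as an absence of red cells.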

How the data were processed

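Whole-liver RNA from 9 mice was sequenced, 5 WT and 4 OGT-deficient. The submitters' processing notes name TopHat2 2.1.0, HTSeq 0.9.1 and mm10 (GRCm38); the annotation release and strand setting are unstated. The authors deposited whole-number read counts per gene symbol, with 5 summary lines that were left out of library sizes and tests. Libraries were grouped by the labels. In R 4.3.3 with edgeR 4.0.16, counts were filtered with filterByExpr, scaled by TMM and tested by the quasi-likelihood F test with group as the only term, adjusted (Benjamini-Hochberg) across 14104 genes, at 0.05. Within groups, library pairs differed by more than counting noise (chi-square 23.9 to 135.0 per degree of freedom).

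Exon lengths are unions of GENCODE M21 exons, and 24046 of 24421 symbols had coordinates. Such a union can be longer than the transcripts present, so levels per kilobase rank different genes only roughly. The test was tried on simulated counts of 13910 genes with the library and group sizes of this comparison. It recovered 28.4% of genes changed by 0.5, 80.6% by 1 and 97.0% by 2 on the log2 scale. Only 67, 67 and 66 genes were so changed, whereas 61.1% of the real tested genes were called. These shares therefore do not measure the power of this comparison. Alternatives were DESeq2 size factors, upper-quartile factors, no filter, CPM 1 in 4 libraries, DESeq2 1.42.0, limma voom (limma 3.58.1), the replicate number as a block and leaving out each library. The members and lists were chosen with earlier results of these data known. By rule, values per library are given for the 2 members of each role with the smallest p, those that fell or were not called, the 3 largest and 3 smallest changes, and the 3 highest per length, and in other lists up to 3 genes with the smallest p and 2 against the majority are named. Promoters were to be those of up to 6 members with TTTGAA and the smallest p; the limits to 150 bases and to stretches free of exons were added later and left exactly 6. Figures used matplotlib 3.10.9.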

Additional observations from a re-analysis of the deposited data

Results flagged for a closer look

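Within a group, a library was taken to stand apart when its gap to the nearest other library was large for the group's range by Dixon's test at the 95% level. The CPM of each of the 60 genes was screened in both groups, 120 group values in all, of which chance alone flags about 1 in 20. In 5 of them a library stood apart. WT 4 was low for Smc2 (2.53 CPM, the other WT libraries 4.81 to 5.60) and for Ckap2 (0.208 CPM, the others 1.43 to 1.91). WT 5 was high for Kif15 (1.10 CPM, the others 0.486 to 0.598) and WT 2 for Kif18a (1.43 CPM, the others 0.694 to 0.805). OGT-deficient 2 was low for Ttk (2.27 CPM, the others 2.59 to 2.63).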

How the results depend on the processing

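Over 16 alternatives, 57 of the 60 genes kept their direction and their side of the threshold in each alternative that tested them. The exceptions were Hmmr and Cenpa, given above, and Spc25, which was not called anywhere. Spc25 stood at 0.10 with upper-quartile factors, 0.0046 with a filter of CPM 1 in 4 libraries, 0.00097 with the replicate block, and -0.11 to 0.065 on leaving out each library. The 60 genes gave 53 to 55 rises and 2 falls on leaving out each library, 53 and 2 in DESeq2, and 54 and 2 with the replicate block. Samples that share a replicate number had correlations of their deviations of 0.0525, -0.103, 0.0220 and 0.104, so the numbers were not taken to pair mice. All tested genes with the block gave 4109 higher and 3760 lower.

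Of 42 genes named outside the 60, 36 kept direction and call throughout. Ncapd3, never called, stood at 0.10 with upper-quartile factors, 0.012 with CPM 1 in 4 libraries, 0.063 with the replicate block, and -0.058 to 0.062 on leaving out each library. Pcnt lost its call without WT 1 (adjusted p = 0.0507) or OGT-deficient 3 (0.0716). Small counts moved in other lists. Falls in the cyclin and CDK1 list were 0 with upper-quartile factors and with the replicate block, 2 with no filter and in DESeq2, and 1 to 2 on leaving out each library. Falls among other spindle and centrosome genes were 0 with upper-quartile factors, 2 with CPM 1 in 4 libraries and with the block, and 1 to 4 on leaving out each library. Rises of the other condensin genes were 1 with no filter and with the block, and 1 to 2 on leaving out each library. The CDK inhibitors gave 1 rise with CPM 1 in 4 libraries, and 0 to 1 falls on leaving out each library. Upper-quartile factors gave the regulators 6 rises and 7 falls and cohesin 6 rises. They moved the median change of all tested genes from 0.02 to 0.14 and the share of higher calls from 51.8% to 62.5%, and that of the 60 genes from 1.84 to 1.96. Depth limited the lowest genes, since a count of 3 in WT 4 is 0.104 CPM.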

Other observations

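Genes that license DNA replication changed in the same libraries. Of 11, 8 rose (72.7%, against 31.6% of all tested genes) and 2 fell (29.4% of all). Mcm6, a subunit of the replicative helicase, went from 6.25 ± 2.42 to 40.6 ± 3.63 CPM (log2 fold change 2.68), Mcm2 rose by 1.83 and Mcm7 by 1.10. The value of Mcm7 is uncertain, since 26.0% of its 50-base stretches occur elsewhere and other genes cover 12.6% of its exonic bases. Geminin (Gmnn), which blocks licensing after replication and is destroyed through the anaphase-promoting complex, fell from 16.7 ± 2.12 to 6.20 ± 1.04 CPM (log2 fold change -1.43, adjusted p = 2.49e-06). Mcm10 fell by 0.90 (SE 0.25, adjusted p = 0.00687), with overlapping groups.

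Among 6 tested CDK inhibitor genes 2 rose and 0 fell, and the 33.3% that rose is near the 31.6% of all tested genes. Cdkn1a, encoding p21, went from 2.37 ± 1.01 to 16.5 ± 6.03 CPM (a log2 rise of 2.80 with SE 0.31, adjusted p = 8.7e-06), so a cell cycle inhibitor and the mitotic genes were higher in the same livers. Cdkn2b went from 0.153 ± 0.109 to 0.778 ± 0.365 CPM. Cdkn1b, encoding p27, was not called (log2 fold change -0.21, adjusted p = 0.0852), but is without OGT-deficient 1 (-0.34, adjusted p = 0.00375).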
